A study of Mus musculus with 6 samples.

Results

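The genes described here were 44 interferon-stimulated genes, among them the OAS family, out of 19342 genes counted in islets from FXR+/+ and FXR-/- mice. They were taken from the gene table by their symbols, and all 44 were found. The symbols had been selected on measured values of the same libraries, namely the levels in FXR-/- against FXR+/+ islets and within each same-numbered pair. Differences between the genotypes in these genes are therefore given as a description, without a test over the list. Each genotype had 3 libraries from whole islets, 1 from female mice (female 1) and 2 from male mice (male 1 and male 2), all at 3 months of age and without a treatment beyond isolation of the islets with collagenase. FXR-/- mice carry a knockout of the gene for FXR, the bile acid receptor, on a C57Bl/6 background, and the control libraries were labelled wild type. How many mice gave each library, and whether the controls were littermates, was not given in the sources used here, so the spread between libraries may be partly technical.

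Interferons are secreted when a cell senses foreign RNA or DNA. They bind receptors on the surface, and transcription factors that include STAT2 and IRF9 then enter the nucleus and switch on a large set of interferon-stimulated genes through a DNA element called the interferon-stimulated response element. Interferon gamma acts mainly through a different element, the gamma-activated site. In pancreatic islets these genes are best known from viral infection and from type 1 diabetes, where beta cells and resident immune cells express them. The products include sensors of viral RNA, enzymes that make the second messenger 2'-5' oligoadenylate (the OAS family), proteins that block viral replication, and GTPases that act on the vacuoles of intracellular microbes.

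Total counts ran from 20629306 to 30139235 per library. Nr1h4, which encodes FXR, had 12.2 to 14.2 CPM (counts-per-million after scaling between libraries) in FXR+/+ and 5.67 to 7.63 CPM in FXR-/- islets. Beta cell markers summed to between 185298 and 269483 CPM and acinar markers summed to between 29114 and 103033 CPM, so the islets held other pancreatic cells as well. Of the 44 genes, 43 passed the filter on low counts and entered the fit of 14619 genes. Oas3 did not pass, since FXR+/+ female 1, male 1 and male 2 held 12, 3 and 9 of its counts and the same-numbered FXR-/- libraries 40, 8 and 6. Values are given in this order of libraries throughout. Because these are bulk samples, fewer cells of a type and less RNA per cell cannot be told apart.

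Many of these genes shared sequence at their starts of transcription. Promoter windows of 300 bases, from 250 bases before to 50 bases after the start of transcription, were available from RefSeq (GRCm38.p6) for 32 of the 44 genes. The core of the interferon-stimulated response element, GAAA followed after any 2 bases by GAAA again, was searched on both strands with overlapping matches counted. It was found in at least 1 window of 17 of the 32 genes (53.1%), against 3.99% of 27025 genes with a window. The core overlapped itself or recurred in 8 of the 17. The gamma-activated site, TTCNNNGAA, was found in 7 of the 32 genes (21.9%) and in 9.55% of all genes. A match is a description of the letters and not a measured binding site. The stretches below are examples picked from the genes with a match. The core is in capitals and the bases are given 5′ to 3′ on the strand of the gene. None is shown for Oas2 and Iigp1, which had no window, or for Cmpk2 and Irf7, whose windows held no match.
Oas1a (minus strand, chr5:120907510-120907565): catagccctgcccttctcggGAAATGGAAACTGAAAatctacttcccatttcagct
Oas1g (minus strand, chr5:120887596-120887651): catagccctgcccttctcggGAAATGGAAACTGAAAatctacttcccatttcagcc
Oas3 (minus strand, chr5:120777705-120777754): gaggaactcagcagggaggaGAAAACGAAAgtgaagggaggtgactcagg
Isg15 (minus strand, chr4:156200855-156200916): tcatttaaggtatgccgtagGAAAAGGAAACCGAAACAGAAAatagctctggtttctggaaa
Ifit1 (plus strand, chr19:34640765-34640833): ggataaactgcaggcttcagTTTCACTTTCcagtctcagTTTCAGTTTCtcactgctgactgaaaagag
Ifit3 (plus strand, chr19:34583353-34583436): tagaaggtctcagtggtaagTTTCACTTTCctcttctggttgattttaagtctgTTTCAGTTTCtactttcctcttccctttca
Rsad2 (minus strand, chr12:26456543-26456592): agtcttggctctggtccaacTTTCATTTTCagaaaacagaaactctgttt
Gbp3 (plus strand, chr3:142559979-142560034): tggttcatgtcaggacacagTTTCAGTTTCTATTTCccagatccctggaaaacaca
Igtp (plus strand, chr11:58199502-58199551): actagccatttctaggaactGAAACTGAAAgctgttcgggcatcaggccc
Irgm1 (minus strand, chr11:48871415-48871470): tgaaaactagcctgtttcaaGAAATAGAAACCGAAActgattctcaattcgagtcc

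The stretches of Oas1a and Oas1g differed at 1 of 56 bases, and the nearest of the 3 overlapping cores of Isg15 began at −66 from the start of transcription. Windows of Irf7, Cmpk2, Oasl1, Oasl2, Irf9, Xaf1, Ifi44 and Ifit2 did not hold these letters, which says nothing of elements elsewhere. Between the female libraries, the 16 tested genes with a match were a median of 2.04-fold as high in FXR-/- as in FXR+/+ (1.23 to 5.28), and the 15 without a match a median of 1.92-fold (1.03 to 4.43).

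The 44 genes differed widely in level. Per kilobase of merged exon, Lgals3bp, which encodes a secreted galectin-binding glycoprotein, was the highest in FXR+/+ islets with 139 CPM per kb. Ifi27 (27.3), Trim25 (14.9), Ifi35 (11.5), Bst2 (10.8) and Cmpk2 (8.31) followed on the same scale. The OAS family lay low, with Oas2 at 0.579 CPM per kb (place 38 of 44) and Oas3 at 0.0445 CPM per kb (place 44). The genes for the ISG15 modifier (0.989) and for the MX1 GTPase (0.124), which are mainstays of an interferon response elsewhere, were also low.

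In the fit over all genes, FXR-/- islets had the higher fitted level in 33 of the 43 tested genes (background 51.6% of all tested genes). The median log2 fold change of FXR-/- over FXR+/+ was 0.24, against 0.01 over all genes tested. In the quasi-likelihood test of edgeR, fitted with genotype and sex, 0 of the 43 had a Benjamini-Hochberg adjusted p under 0.05, as for all genes (background 0%). At an unadjusted p under 0.05, 6 were higher in FXR-/- (Cmpk2, Ifi44, Lgals3bp, Oas2, Oasl1 and Rsad2; background 6.18%) and 0 were lower (background 4.15%). When sex was replaced by a block for replicate number, edgeR called 3 at an adjusted p under 0.05, Cmpk2, Oas2 and Rsad2 (background 0.157%), and DESeq2 with sex called the same 3 (background 1.21%). These counts come from the contrast that selected the genes, and nothing is read from them beyond the values.

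Within same-numbered pairs, this shift was large in the female pair and not in the male pairs. All 43 tested genes were higher in FXR-/- female 1 than in FXR+/+ female 1 (background 50.4%), by a median of 2.04-fold. In the male 1 pair 24 were higher (background 49.6%) with a median of 1.02-fold, and in the male 2 pair 15 were higher (background 52.7%) with a median of 0.873-fold. Within the female pair, 31 of the 43 were at least 1.5-fold higher in FXR-/- (background 6.85%) and 0 at least 1.5-fold lower (background 2.77%). In the male 1 pair 5 were higher by this margin (background 6.47%) and 2 lower (background 6.69%). In the male 2 pair 4 were higher (background 10.5%) and 9 lower (background 3.3%), so that more genes were lower than higher there. Higher in FXR-/- in every pair were 12 (background 20.4%), namely Bst2, Cmpk2, Dhx58, Ifi27, Ifi44, Ifit2, Isg15, Lgals3bp, Mx2, Oas2, Oasl1 and Rsad2. None was lower in every pair, 0 of 43 (background 18.9%).

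**Figure D1:**
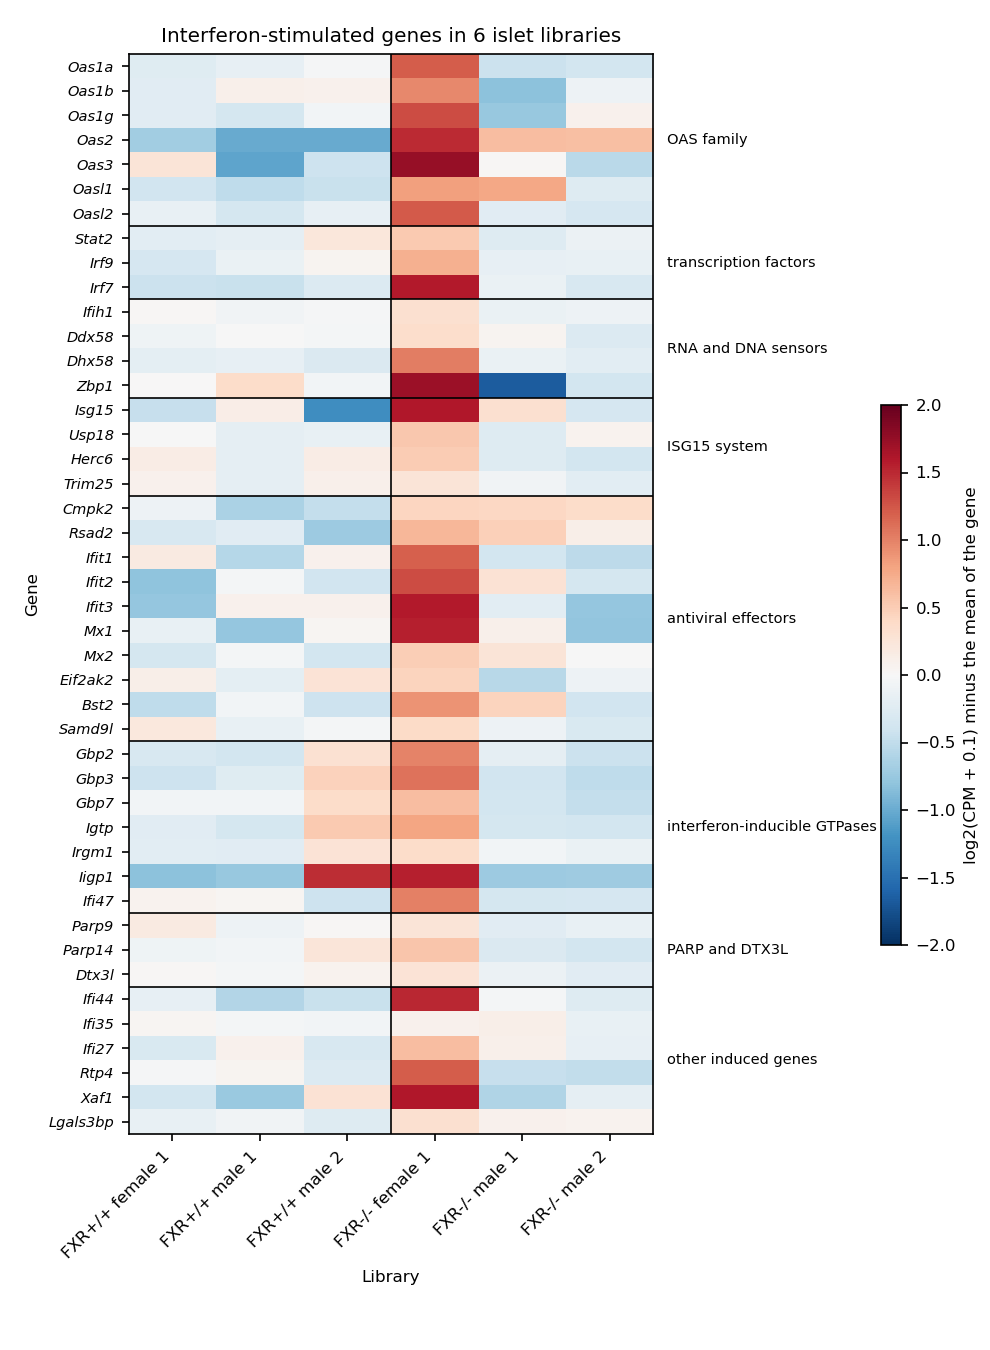
Heat map of the 44 genes (rows, grouped by role) in the 6 libraries (columns), as log2(CPM + 0.1) minus the mean of each gene over the libraries. FXR-/- female 1 is the darkest red column across nearly all rows, FXR+/+ male 2 is red for Iigp1, Igtp and the Gbp genes, and Oas2 and Cmpk2 are red in all 3 FXR-/- libraries.

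FXR-/- female 1 was the highest of the 6 libraries for 42 of the 43 tested genes (background 15.4%), the exception being Ifi35, where FXR-/- male 1 was highest. For 20 genes it was at least 1.5-fold above every other library (background 0.664%). Among the 13537 genes with a mean of at least 1 CPM, ranked by the excess of FXR-/- female 1 over the highest other library, the listed genes took 18 of the first 50 places and 23 of the first 200. Summed over all 44 genes, FXR+/+ islets had 932, 926 and 946 CPM and FXR-/- islets 1427, 1017 and 976 CPM. Lgals3bp made up the largest part of these sums, and without it they were 534, 503 and 576 CPM against 872, 546 and 509 CPM, so that the males of the genotypes overlapped. In the male libraries alone, 15 of the 43 had the higher fitted level in FXR-/- (background 51.6%), with a median log2 fold change of −0.11.

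A fit with an interaction of genotype and sex called 0 of the 43 genes, and 0 of all genes, at an adjusted p under 0.05 by edgeR. At an unadjusted p under 0.05 it listed 22 of the 43 (background 1.48%). The females had 1 library per genotype, so the spread in that fit came from the male libraries, and sex and the single female library of each genotype cannot be told apart.

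**Figure D2:**
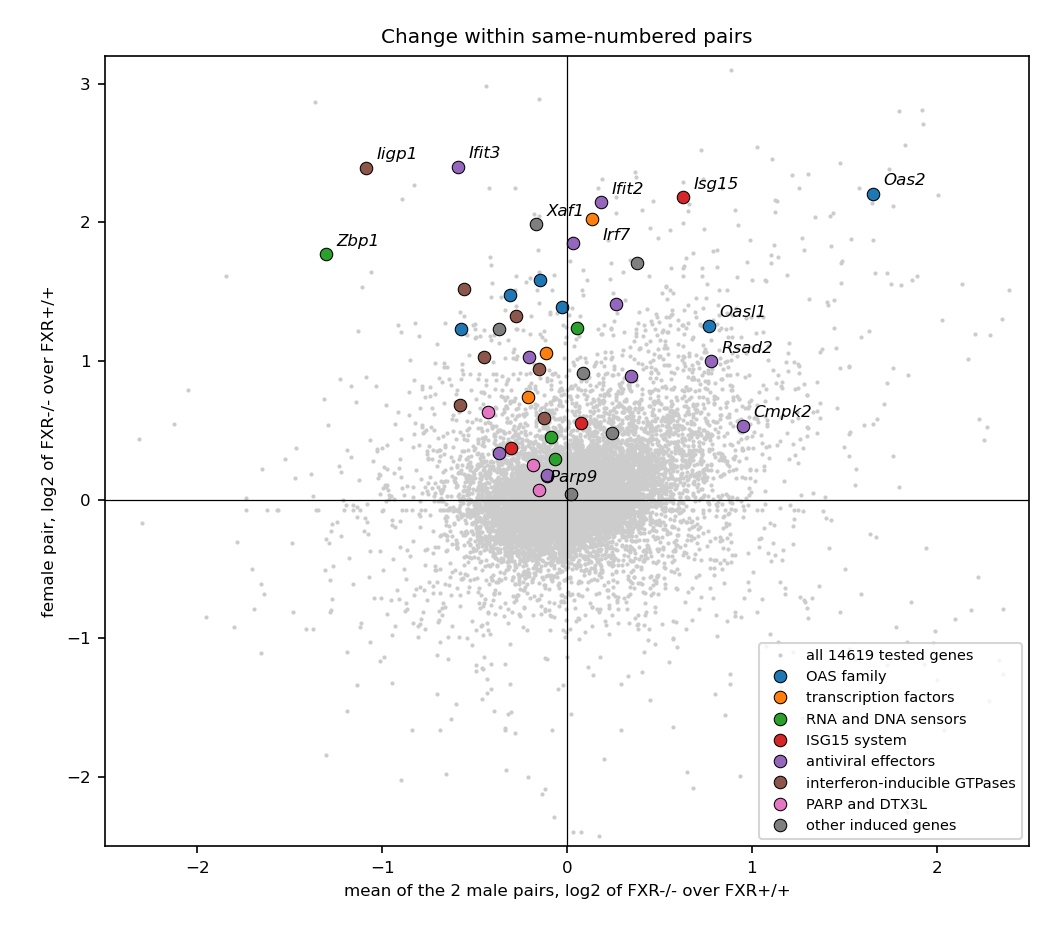
Log2 ratio of FXR-/- over FXR+/+ in the female pair (vertical axis) against the mean of the male 1 and male 2 pairs (horizontal axis), with the 43 tested genes coloured by role and all 14619 tested genes in grey (29 lie outside the plotted range). All 43 lie above 0 on the vertical axis. Along the horizontal axis Oas2, Cmpk2, Rsad2, Oasl1 and Isg15 lie farthest to the right and Zbp1 and Iigp1 farthest to the left. Ifit3, Gbp7, Oas1b and Gbp3 lie between −0.59 and −0.56 on that axis, and the rest closer to 0.

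Of the 2'-5' oligoadenylate synthetases, Oas2 stood apart from the rest of its family. Oas2 (NCBI gene 246728, GRCm38 chr5:120730333-120749886, minus strand) had 2.98, 2.38 and 2.37 CPM in FXR+/+ and 13.9, 7.57 and 7.45 CPM in FXR-/- islets. The genotypes did not overlap, and FXR-/- exceeded FXR+/+ in the female, male 1 and male 2 pairs by 4.62-, 3.16- and 3.13-fold. Its fitted log2 fold change was 1.85 (standard error 0.174), the first of all 14619 genes by p.

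Oas1a, an enzyme that makes 2'-5' oligoadenylate, had 2.30, 2.43 and 2.68 CPM in FXR+/+ and 6.44, 2.00 and 2.10 CPM in FXR-/- islets. Oas1g had 1.41, 1.29 and 1.61 CPM against 4.25, 0.947 and 1.77 CPM, and Oas1b, whose full-length form restricts flaviviruses, had 1.96, 2.48 and 2.46 CPM against 4.62, 1.26 and 2.15 CPM. In each of these FXR-/- female 1 was the highest library. The other FXR-/- libraries lay among or below FXR+/+, except FXR-/- male 2 for Oas1g, which lay just above. The fitted log2 fold changes were 0.33 (standard error 0.371), 0.53 (0.415) and 0.10 (0.396) for Oas1a, Oas1g and Oas1b. These are near copies of each other on chromosome 5, so reads may have been shared between them by a counting rule that was not given in the sources used here.

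Oasl2, an OAS-like protein with ubiquitin-like domains, had 7.93, 6.89 and 7.83 CPM in FXR+/+ and 20.8, 7.47 and 6.94 CPM in FXR-/- islets, again with FXR-/- female 1 alone above the rest. Oasl1, known as a repressor of Irf7 translation, had 1.19, 1.09 and 1.14 CPM in FXR+/+ and 2.88, 2.79 and 1.30 CPM in FXR-/- islets, so it was high in 2 of the 3 FXR-/- libraries and the third lay just above FXR+/+. Its log2 fold change was 1.00 (standard error 0.334). Oas3, under the filter, had 0.511, 0.149 and 0.284 CPM against 1.62, 0.421 and 0.252 CPM, and its male libraries overlapped between the genotypes. All 6 tested members of the family had a positive fitted log2 fold change (background 51.6%), also with every other scaling of the libraries that was tried. In males alone, however, Oas1a, Oas1b, Oas1g and Oasl2 were at −0.32, −0.52, −0.09 and −0.03.

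The counts on single exons split Oas2 into parts that behaved differently. The exon table listed 10 of the 11 exons of its full-length transcripts, numbered here from the start of transcription. On exon 9 (chr5:120734980-120735218) the FXR+/+ libraries held 28, 16 and 6 counts and the FXR-/- libraries 97, 90 and 119. On exon 7 (chr5:120738295-120738577) they held 6, 3 and 1 against 28, 17 and 12. Exon 6 (chr5:120738670-120738843) was counted 3, 0 and 1 times against 14, 13 and 11. On these 3 exons all FXR-/- libraries were high, male libraries included.

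The last exon of Oas2, exon 11 (chr5:120730333-120731958), is the longest at 1626 bases and was counted 12, 10 and 36 times in FXR+/+ against 71, 15 and 16 times in FXR-/- islets. The counts on the first exon (chr5:120749459-120749848) were 1, 4 and 2 against 17, 2 and 1. On both ends of the gene FXR-/- female 1 was high and the FXR-/- males lay within the range of FXR+/+. Exon 8, between the high exons 7 and 9, was at 0 in every FXR+/+ library and at 6, 0 and 0 counts in FXR-/-, so the rise did not run evenly from exon 6 to exon 9.

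As CPM of all exon counts of a library, exons 6, 7 and 9 together held 4.69, 2.78 and 0.725 in FXR+/+ and 17.1, 17.4 and 16.7 in FXR-/- islets. The other 7 listed exons together had 1.77, 2.49 and 3.72 in FXR+/+ and 13.4, 2.47 and 2.35 in FXR-/- islets. The first group was thus nearly level across the FXR-/- libraries and did not overlap between the genotypes, while the second followed the single high library seen for most of the listed genes. Exons 6, 7 and 9 held 72.5% (exact 95% binomial interval 58.3 to 84.1), 52.8% (35.5 to 69.6) and 16.3% (7.32 to 29.7) of the Oas2 exon counts in FXR+/+, and 56.0% (49.6 to 62.3), 87.6% (80.9 to 92.6) and 87.7% (81.6 to 92.3) in FXR-/- islets. These intervals cover counting error only, the grouping of exons was made after their values were seen, and no test was made. No annotated gene of GENCODE vM21 shares exon bases with Oas2.

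**Figure D3:**
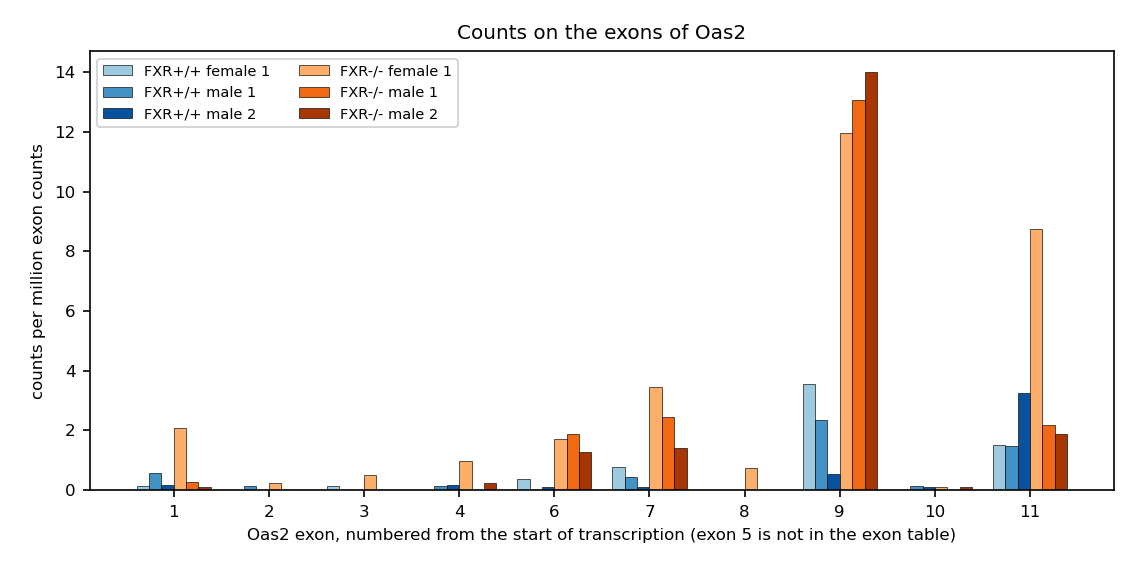
CPM of all exon counts on each listed exon of Oas2, numbered from the start of transcription, with 1 bar per library and no replicate error (blue for FXR+/+, orange for FXR-/-). Exon 9 stands near 12 to 14 in all 3 FXR-/- libraries and at 0.544 to 3.55 in FXR+/+, whereas exon 11 is high in FXR-/- female 1 alone, at 8.75.

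Cmpk2 and Rsad2 were also higher in FXR-/- in each pair, by 1.45-, 2.07- and 1.81-fold for Cmpk2 and by 2.00-, 1.63- and 1.80-fold for Rsad2. Cmpk2, a mitochondrial nucleotide kinase, had 42.4, 29.0 and 32.4 CPM in FXR+/+ and 61.3, 60.1 and 58.7 CPM in FXR-/- islets, with a log2 fold change of 0.81 (standard error 0.108). Rsad2, which encodes viperin and lies next to Cmpk2 on chromosome 12, had 11.04, 11.8 and 8.36 CPM against 22.1, 19.4 and 15.1 CPM, with a log2 fold change of 0.85 (standard error 0.169). Neither gene overlapped between the genotypes, and in neither did FXR-/- female 1 stand more than 1.14-fold above the next library.

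In both genes the first and last exons were higher in every FXR-/- library than in its same-numbered FXR+/+ library. The first exon of Rsad2 was nearly level in the female pair, at 19 against 20 counts. The last exon of Cmpk2 (chr12:26478012-26479837) was counted 606, 350 and 605 times against 912, 669 and 819, and the first 50, 40 and 48 times against 96, 72 and 70. The last exon of Rsad2 (chr12:26442743-26445570) was counted 168, 149 and 193 times against 375, 235 and 240, and the first 19, 16 and 12 against 20, 32 and 23. In 15 alternative settings the log2 fold change ran from 1.66 to 2.14 for Oas2, from 0.71 to 0.95 for Cmpk2 and from 0.74 to 1.02 for Rsad2.

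The genotypes did not overlap for 6 of the 43 tested genes with FXR-/- higher (background 8.02%) and for 0 with FXR-/- lower (background 7.37%). Beside Oas2, Oasl1, Cmpk2 and Rsad2 these were Mx2, an antiviral dynamin-like GTPase, and Lgals3bp. Mx2 had 1.36, 1.73 and 1.36 CPM in FXR+/+ and 2.55, 2.16 and 1.77 CPM in FXR-/- islets, and Lgals3bp had 398, 423 and 370 CPM against 556, 471 and 467 CPM. When FXR-/- female 1 was left out, an alternative chosen after seeing the data, the same 6 genes were higher in both FXR-/- male libraries than in every FXR+/+ library (background 17.4%). A further 10 were then lower in both (background 16.8%), namely Dtx3l, Gbp7, Herc6, Ifih1, Igtp, Oas1a, Parp14, Parp9, Rtp4 and Zbp1.

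**Figure D4:**
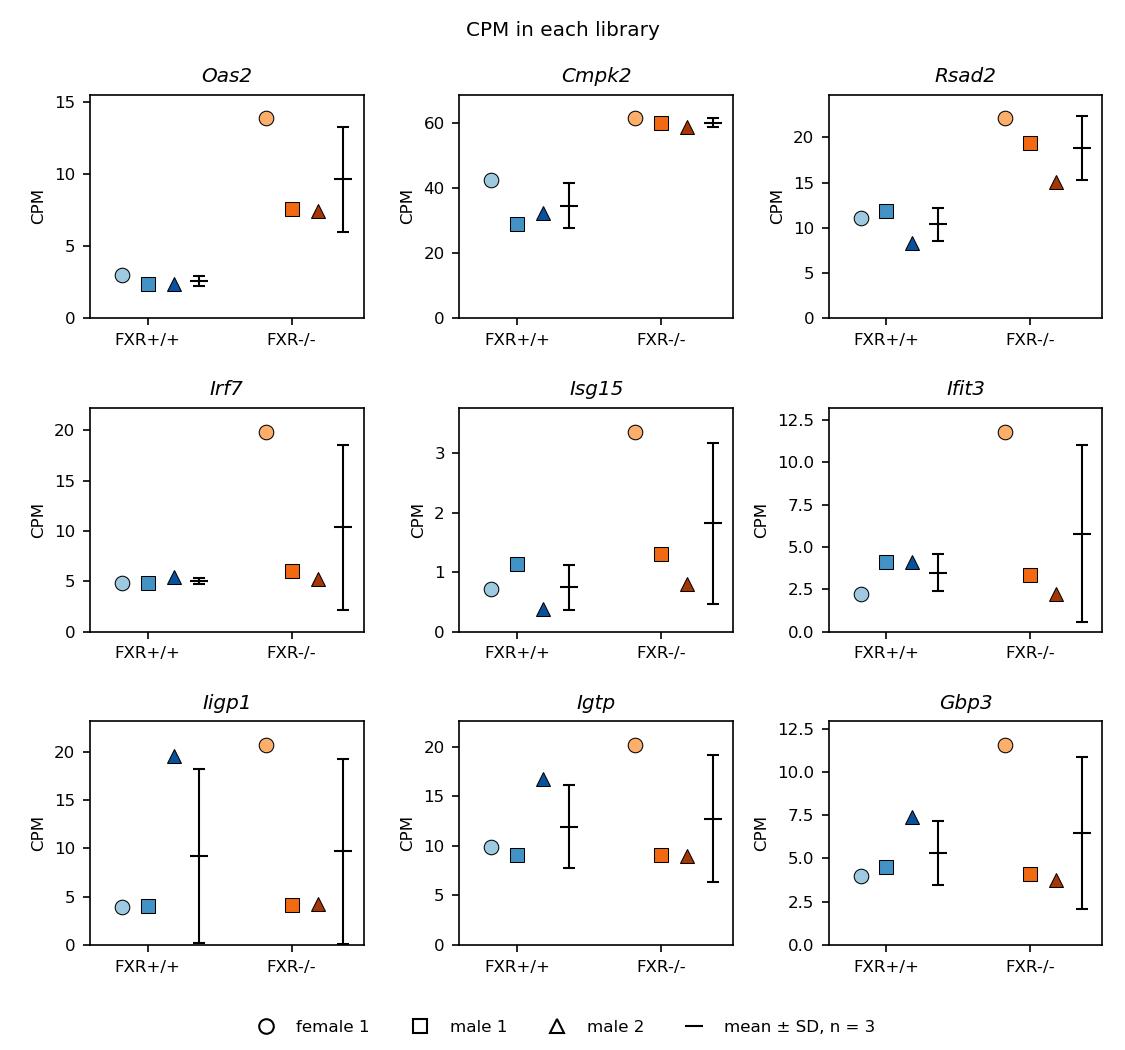
CPM in each library for 9 of the genes, with circles for female 1, squares for male 1, triangles for male 2, and a bar for the mean ± SD of the 3 libraries of a genotype. The top row (Oas2, Cmpk2, Rsad2) is higher in all FXR-/- libraries, the middle row (Irf7, Isg15, Ifit3) has FXR-/- female 1 alone far above the rest, and the bottom row (Iigp1, Igtp, Gbp3) has FXR-/- female 1 and FXR+/+ male 2 as the 2 highest libraries.

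Among the transcription factors, Irf7, the amplifier of the type I interferon response, had 4.86, 4.81 and 5.40 CPM in FXR+/+ and 19.8, 5.996 and 5.22 CPM in FXR-/- islets. FXR-/- female 1 was 3.30-fold above the next library, the largest such excess of the 13537 genes with a mean of at least 1 CPM. Irf9, the DNA-binding part of the complex with STAT2, had 15.5, 17.99 and 20.4 CPM against 32.4, 17.6 and 17.8 CPM. Stat2 had 19.6, 19.97 and 26.7 CPM against 32.8, 18.9 and 20.9 CPM, so FXR+/+ male 2 came second for it and for Irf9. The log2 fold changes were 0.78 (standard error 0.368) for Irf7, 0.27 (0.228) for Irf9 and 0.09 (0.211) for Stat2, and in males alone those of Irf9 and Stat2 were −0.12 and −0.23.

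The sensors were uneven. Zbp1, a receptor of Z-form nucleic acid, and Dhx58, which encodes the regulator LGP2, were 3.41- and 2.35-fold as high in FXR-/- as in FXR+/+ within the female pair. Ddx58 (RIG-I) and Ifih1 (MDA5), the main sensors of cytosolic viral RNA, were 1.37- and 1.23-fold as high. In the male pairs the 4 sensors ran from 0.205-fold (Zbp1, male 1, from 28 to 5 counts) to 1.06-fold. Zbp1 was among the lowest in level, with 0.263 to 3.69 CPM.

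Isg15, the ubiquitin-like modifier itself, had 0.725, 1.14 and 0.379 CPM in FXR+/+ and 3.36, 1.31 and 0.799 CPM in FXR-/- islets, and its log2 fold change of 1.20 (standard error 0.522) was the second largest of the 43. The enzymes that attach or remove it varied less. Usp18, the protease that removes ISG15, and Herc6, its mouse ligase, were 1.47- and 1.29-fold as high in FXR-/- female 1 as in FXR+/+ female 1. Trim25, a ligase that also acts on RIG-I and the second highest of the 44 genes by mean CPM, had 90.8, 75.3 and 91.8 CPM in FXR+/+ and 102, 81.2 and 73.5 CPM in FXR-/- islets, a log2 fold change of −0.02 (standard error 0.108).

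The genes for the IFIT proteins, which bind viral RNA and block its translation, were high in FXR-/- female 1 as Irf7 was. Ifit3, Ifit2 and Ifit1 were 5.28-, 4.43- and 2.04-fold as high in FXR-/- as in FXR+/+ in the female pair. They were 0.807-, 1.26- and 1.15-fold as high in the male 1 pair, and 0.546-, 1.02- and 0.655-fold in the male 2 pair. Bst2 (tetherin), which holds budding virions at the membrane, was 2.65-, 1.41- and 1.02-fold as high in FXR-/- in the female, male 1 and male 2 pairs. Mx1 stayed at 0.295 to 1.90 CPM, and Eif2ak2 (PKR) and Samd9l, which restrain translation, were at 1.26- and 1.13-fold in the female pair. Of the 10 antiviral effectors, Cmpk2 and Rsad2 included, all 10 were higher in FXR-/- in the female pair (background 50.4%). In the male 1 pair 8 were higher (background 49.6%), and in the male 2 pair 5 (background 52.7%).

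The interferon-inducible GTPases, which gamma interferon induces most strongly and which act on the vacuoles of intracellular microbes, had a second high library. Iigp1 had 3.92, 4.06 and 19.6 CPM in FXR+/+ and 20.7, 4.15 and 4.21 CPM in FXR-/- islets, so FXR+/+ male 2 was 4.79-fold above the next FXR+/+ library and level with FXR-/- female 1. Igtp had 9.89, 9.12 and 16.7 CPM against 20.2, 9.10 and 8.96 CPM, and Gbp3 had 4.01, 4.51 and 7.42 CPM against 11.5, 4.10 and 3.74 CPM. Gbp2, Gbp7 and Irgm1 had the same 2 highest libraries, and Ifi47 did not. The GTPases were the role whose same-numbered pairs diverged most, with a median log2 ratio of 1.03 in the female pair and −0.85 in the male 2 pair.

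FXR-/- female 1 and FXR+/+ male 2 were the 2 highest libraries for 15 of the 43 tested genes (background 6.12%). Beside 6 of the GTPases these were Dtx3l, Eif2ak2, Herc6, Irf9, Oas1a, Parp14, Stat2, Trim25 and Xaf1. This is a rank and not a margin. FXR+/+ male 2 exceeded the next FXR+/+ library by only 1.01-fold for Herc6 and Trim25 and 1.03-fold for Dtx3l. For Irf7, Ifit2, Isg15 and Zbp1, FXR+/+ male 2 was not among the 2 highest libraries, with 5.40, 2.84, 0.379 and 1.01 CPM. Of these, Irf7 was still 1.11-fold above the next FXR+/+ library there.

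Ifi35, Ifih1, Trim25, Parp9 and Dtx3l varied little between libraries, whereas Parp14 varied more. Parp9 and Dtx3l, partners in ADP-ribosylation and ubiquitination after DNA damage, had log2 fold changes of −0.08 (standard error 0.103) and −0.04 (0.120). Their highest library was 1.40- and 1.42-fold above their lowest. They share 458 exon bases on opposite strands, so without a stated use of strand their counts cannot be fully told apart. Parp14, the fifth highest of the 44 by mean CPM, had 28.4, 29.1 and 35.7 CPM in FXR+/+ and 44.2, 24.5 and 23.4 CPM in FXR-/- islets. Ifi35 ran from 18.01 to 21.6 CPM over all 6 libraries.

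Of the remaining genes, Ifi44 and Xaf1, a cofactor in apoptosis, were 3.27- and 3.96-fold as high in FXR-/- as in FXR+/+ within the female pair, and Rtp4, a receptor chaperone, 2.35-fold. In the male 1 pair Rtp4 was 0.695-fold and Ifi44 1.47-fold as high. Ifi27, the fourth highest by mean CPM, had 36.4, 47.7 and 36.05 CPM in FXR+/+ and 68.7, 48.1 and 40.2 CPM in FXR-/- islets.

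Other genes of the pathway were examined by lists drawn up by role. The interferons themselves were nearly silent: 4 of 10 ligands were counted at all, their sum was at most 0.421 CPM in any library, and 0 passed the filter. Of 11 receptors, JAK kinases and STATs, 6 were higher in FXR-/- in the fit (background 51.6%) and 5 lower. Of 13 sensors and adaptors 6 were higher (background 51.6%) and 7 lower. Of 9 negative regulators 5 were higher (background 51.6%) and 4 lower. Of 5 further interferon regulatory factors 3 were higher (background 51.6%) and 2 lower. The edgeR test called 0 of the genes of these lists at an adjusted p under 0.05 (background 0%). Among these, the log2 fold change of Stat3 was 0.25 (standard error 0.105) and of Irf1 0.28 (0.170). That of Socs3, which ran from 9.56 to 151 CPM across libraries, was 0.58 (0.803).

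A further 53 interferon-stimulated genes, of which 50 were counted and 46 tested, had a smaller shift in the female pair. They were measured in the same libraries, and this list too was drawn up with earlier results of these data known. Of the 46, 42 were higher in FXR-/- in the female pair (background 50.4%). In the male 1 pair 22 were higher (background 49.6%) and in the male 2 pair 19 (background 52.7%). FXR-/- female 1 was the highest library for 32 (background 15.4%). Their median log2 ratio was 0.54 in the female pair, −0.03 in the male 1 pair and −0.12 in the male 2 pair. In the fit, 31 were higher (background 51.6%) and 15 lower, with a median log2 fold change of 0.09 and 0 called by edgeR. The replicate block called 1, Cxcl10, a chemokine, with 0.554, 1.98 and 0.379 CPM in FXR+/+ and 2.47, 7.10 and 1.26 CPM in FXR-/- islets (log2 fold change 1.97, standard error 0.749, without the block). It was higher in FXR-/- in every pair, and its highest library was male 1.

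Of the 15 genes outside the list in which FXR-/- female 1 most exceeded the next library, 6 were on that further list (Ifi27l2a, Gbp4, Ifi204, Gbp9, Gbp6 and Ifit3b), with excesses of 1.67- to 2.04-fold. The largest excess was that of H2-Ea-ps, a pseudogene of an MHC class II chain, with 0.0426, 0.0496 and 4.64 CPM in FXR+/+ and 18.4, 0 and 6.44 CPM in FXR-/- islets. The pseudogene was thus near 0 in FXR+/+ female 1 and male 1 and in FXR-/- male 1. Phf11b, Npy, Astn2, Ctrc, Nlrp5-ps, Rbfox1, 1700034H15Rik and Ngef made up the rest, at 1.64- to 1.91-fold.

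**Figure D5:**
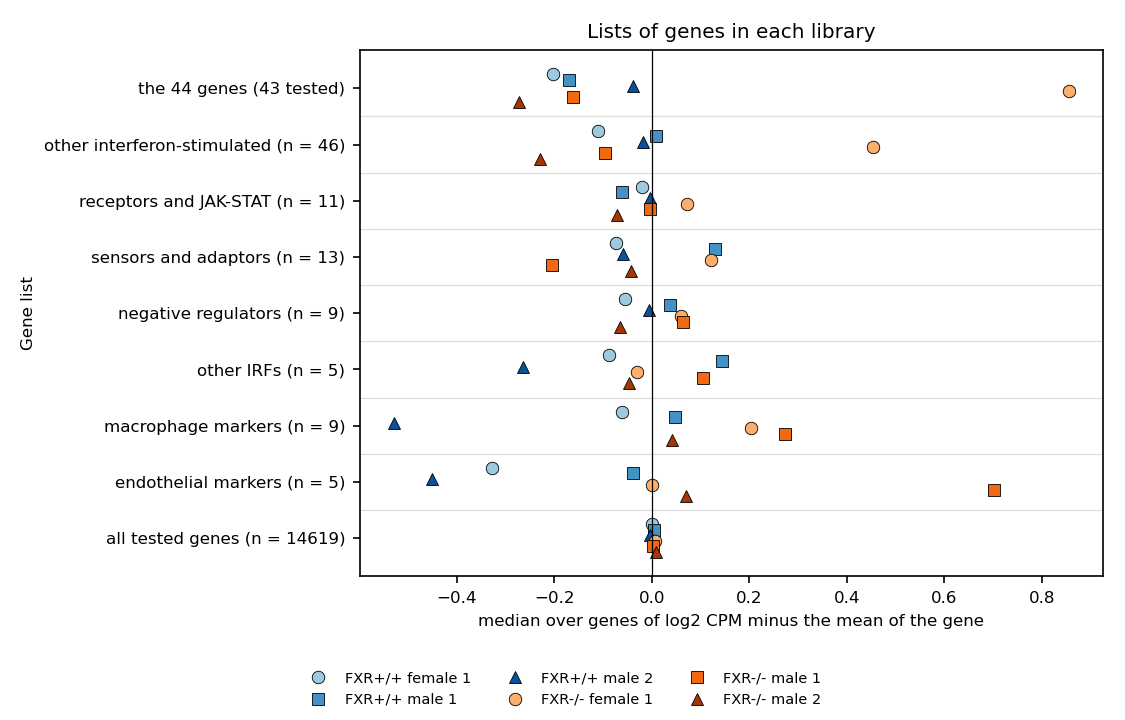
Median over the tested genes of each list (rows) of log2 CPM minus the mean of the gene, in each of the 6 libraries (blue for FXR+/+, orange for FXR-/-). FXR-/- female 1 lies at 0.86 for the 44 genes and at 0.45 for the other interferon-stimulated genes, away from the other libraries, and close to them for the receptors, sensors, negative regulators and other factors, while macrophage and endothelial markers are highest in FXR-/- male 1.

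Immune and vascular cells were followed by their markers in the same libraries. The 9 macrophage markers summed to 138, 155 and 117 CPM in FXR+/+ and 159, 180 and 155 CPM in FXR-/- islets. In the fit, 7 of the 9 were higher in FXR-/- (background 51.6%). The sum was highest in FXR-/- male 1, and FXR+/+ male 2, where the GTPases were high, had the lowest. The 6 dendritic cell markers summed to 8.82, 9.17 and 6.25 CPM against 13.3, 10.4 and 8.04 CPM, highest in FXR-/- female 1. Most of each sum was Itgax, which encodes CD11c, with 5.37, 6.39 and 4.20 CPM against 9.76, 7.63 and 5.89 CPM. Clec9a, a marker of cross-presenting dendritic cells, had 0.980, 1.04 and 1.23 CPM against 2.03, 1.53 and 0.926 CPM. Both were highest in FXR-/- female 1. Siglech, which marks plasmacytoid dendritic cells, ran from 0.631 to 0.942 CPM and was highest in FXR+/+ male 1. Flt3, Xcr1 and Ccr9 had at most 0.725 CPM and were each highest in FXR+/+ female 1. They had 0.725, 0.256 and 0.597 CPM there, against 0.365, 0.162 and 0.122 CPM in FXR-/- female 1.

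The 9 markers of T and NK cells summed to 4.60, 4.66 and 0.852 CPM in FXR+/+ and 3.24, 1.53 and 1.43 CPM in FXR-/- islets, and the 4 counted B cell markers to 26.1, 42.8 and 20.3 CPM against 24.5, 15.4 and 15.1 CPM. Neither sum was highest in FXR-/- female 1. The 5 endothelial markers were all higher in FXR-/- in every pair (background 20.4%), with sums of 369, 444 and 356 CPM against 457, 725 and 500 CPM. The part of these cells in the levels of the interferon-stimulated genes was not tested.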

How the data were processed

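RNA was sequenced from FXR+/+ and FXR-/- islets, and genotype, sex and replicate number were taken from the labels. The authors deposited whole-number counts per gene and per exon, without normalization. HISAT is named in the submitters' processing notes without a version, and the counting rule, the use of strand and the annotation are not given in the sources used here. Exon positions are those of GRCm38, and 86.7% of 139263 exons match GENCODE vM21. The authors' own DESeq comparison was not used. It holds mean counts, fold changes and p- and q-values.

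For the gene counts, edgeR 4.0.16 in R 4.3.3 was used: filterByExpr by genotype (minimum count 10, minimum total 15), TMM, glmQLFit and glmQLFTest with genotype and sex as terms on all 6 libraries (3 per genotype), and Benjamini-Hochberg adjustment over 14619 genes at 0.05. CPM are counts scaled by TMM. Pair ratios and excesses over other libraries are on a log2 scale with 0.5 counts added. Fold changes are FXR-/- over FXR+/+. Standard errors come from the F statistic. Scripts were tested on simulated data. The total of 20629306 to 30139235 counts per library sets the counting precision, and intervals cover counting error only.

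Same-numbered libraries of the genotypes deviated together (correlation across genes 0.358 for female 1, 0.356 for male 1 and 0.311 for male 2, against −0.303 to 0.011 for other numbers). The numbers come from the labels, which do not say whether they mark a litter, batch or day. No libraries were near-identical.

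The genes and lists were chosen with earlier results of these data known. Named with values in every library were the OAS family, Stat2, Irf9, Irf7, Cmpk2, Rsad2, the 5 genes highest in mean CPM, genes whose genotypes do not overlap and whose log2 fold change was 0.5 or more in size, 15 genes outside the list by the excess of FXR-/- female 1 (mean CPM of at least 1), and the most changed genes of each pathway list, of which some are not reported here. Exon results and other genes named were picked after their values were seen. Promoters are RefSeq windows. For 25 of 32 genes, bases after the start were found in a GENCODE transcript. No window was used for Dhx58, Ifi27, Iigp1, Mx1, Mx2, Oas1b, Oas2, Parp14, Parp9, Rtp4, Usp18 and Zbp1. Alternatives were no sex term, the replicate block, males alone, DESeq2 1.42.0, other scalings (DESeq2 size factors, upper quartile, library size), no filter, exon counts summed per gene, and each library left out.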

Additional observations from a re-analysis of the deposited data

Results flagged for a closer look

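For 16 of the 43 tested genes the female pair was higher in FXR-/- and both male pairs were lower, a pattern found in 11.3% of all 14619 tested genes. The difference of the log2 ratio in the female pair from the mean of the male pairs was 3.07 for Zbp1, 2.99 for Ifit3, 2.08 for Gbp3, 1.80 for Oas1b, 1.79 for Oas1a and 1.60 for Rtp4. It was 1.48 for Igtp, 1.26 for Gbp7, 1.17 for Irf9, 1.06 for Parp14, 0.95 for Stat2, 0.70 for Eif2ak2 and 0.68 for Herc6. It was smallest for Dtx3l (0.43), Ifih1 (0.36) and Parp9 (0.22). These differences rest on 1 female library per genotype and were not tested one by one. A fit with an interaction of genotype and sex, with its spread from the males, called 0 of the 43 by edgeR's adjusted p, and 22 at an unadjusted p under 0.05.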

How the results depend on the processing

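The call of single genes depended on the model. Over all genes, the replicate block in place of sex called 23 at an adjusted p under 0.05, DESeq2 called 170 and exon counts summed per gene called 4, against 0 in the fit with sex. Among the 43 tested interferon-stimulated genes these settings called 3, 3 and 1 (Oas2), against 0. In males alone, 15 of 43 were higher in FXR-/- and not 33, and the median log2 fold change was −0.11 and not 0.24. Leaving out each library moved the number higher from 15 to 43 and the median from −0.11 to 0.51. Without FXR-/- female 1 or without FXR+/+ female 1 it was 15, and without FXR+/+ male 2 it was 43 of 44. Of genes whose genotypes do not overlap, those with FXR-/- lower went from 0 to 10 without FXR-/- female 1. Scaling by library size moved the median over all genes to −0.09 and that of the listed genes to 0.15, with 28 of 43 higher. In males alone the same scaling moved these medians to −0.13 and −0.26. For 11 named genes, 30 values moved by more than 1 standard error and 133 did not. Irf9, Oas1a, Oas1g and Oasl2 fell below 0 in 3 settings each and Oas1b and Stat2 in 4. Counts under about 10 per exon limit the split of Oas2 to its larger exons.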
